A study of Mus musculus with 6 samples.

Results

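The nuclear-encoded genes of the mitochondrial respiratory chain and ATP synthase were followed complex by complex in livers of mice on a high-fat diet given atractylodin or its vehicle. Members were taken by symbol: every row that began with Nduf, Uqcr, Cox4i, Cox5, Cox6, Cox7, Cox8 or Atp5, together with Sdha, Sdhb, Sdhc, Sdhd and Cyc1. This gave 93 of the 23282 rows of each count file. By complex, 44 rows belonged to complex I, 4 to complex II, 9 to complex III, 20 to complex IV and 16 to complex V. The symbols also bring in genes that are not structural subunits: 8 complex I assembly factors (Ndufaf1 to Ndufaf7 and Atp5sl), the supercomplex factor Cox7a2l, counted with complex IV, and the coupling factor Atp5s, counted with complex V. Ndufa4, named as a complex I gene, encodes a subunit found with cytochrome c oxidase and was counted with complex IV. The 13 subunits encoded by mitochondrial DNA were not analysed here.

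All mice were males of the C57BL/6N strain (the genotype label reads C57BL/6), 8 weeks old when the high-fat diet began, and all stayed on that diet for 12 weeks. The atractylodin group (n = 3 libraries) received atractylodin, a plant polyacetylene, at 10 mg/kg by mouth on 5 days a week during the last 4 weeks, after 8 weeks of diet alone. The vehicle group (n = 3) received vehicle over the same weeks on the same diet, and no group on a standard diet was analysed here. Whole-liver RNA was sequenced as QuantSeq libraries, which read the 3′ end of each polyadenylated transcript. The labels do not say that libraries came from separate animals, so p-values here cover library-to-library spread, which may be technical.

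Complexes I and II pass electrons from NADH and succinate to ubiquinone, complex III passes them on to cytochrome c, complex IV passes them to oxygen, and complex V makes ATP from the proton gradient that complexes I, III and IV build. In hepatocytes the chain is where the electrons of fatty acid oxidation end, and its nuclear genes are usually expressed together under broadly active factors such as NRF1 and GABP and the coactivator PGC-1α. Several complex IV subunits exist as a liver-type and a muscle, lung or testis form encoded by separate genes.

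The atractylodin libraries held 9871762 to 12565393 counts. The vehicle libraries held 1831461, 11120089 and 12111553, and the shallow one, vehicle 1, also showed the fewest rows with a count, 13887 against 16076 to 16209 in the other 5 libraries. In vehicle 1 the tested members had a median of 327 counts, and 14 of them had fewer than 100. Members took 1.96%, 1.89% and 1.80% of all counts in the atractylodin libraries and 2.03%, 2.10% and 1.99% in the vehicle libraries, so the groups did not overlap in this share. Values below are counts per 1000000 counts (CPM) on library sizes scaled by TMM, edgeR's trimmed-mean scaling. That scaling brought the summed level of all members to between 18842 and 19807 CPM with atractylodin and between 19458 and 20092 CPM with vehicle, a ratio of 0.976, and the ranges overlapped. In whole-liver RNA, fewer cells of a type and less RNA per cell cannot be told apart.

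No member of any complex passed the test. Of 87 members with enough counts to test, 0 were called higher and 0 lower at an adjusted p of 0.05 in edgeR's quasi-likelihood test. Over all 12505 tested rows, 906 (7.25%) were called, 490 (3.92%) higher and 416 (3.33%) lower. Among the 2654 tested rows averaging at least 50 CPM, a level that 75 members reached, 443 (16.7%) were called. At an unadjusted p of 0.05, edgeR counted 4 members, Uqcrfs1 higher and Cox5b, Ndufa8 and Atp5k lower, while 21.5% of all rows stood past it. DESeq2 called 0 members with 3 at an unadjusted p under 0.05, and limma-voom called 0 with 5. The smallest adjusted p of any member was 0.0738, for Cox5b.

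The estimates were narrow as well as small. The median log2 fold change of the 87 members was -0.03, against -0.00 over all tested rows, and the median size of the change without its sign was 0.07, against 0.23. Members ran between -0.63 for the muscle-type gene Cox7a1 and 0.23 for Uqcrfs1. For 81 of the 87 members (93.1%) the whole 95% interval lay within a 1.5-fold change either way, against 40.2% of all tested rows. The bounds of those 81 intervals reached 0.71-fold at the lowest and 1.47-fold at the highest, so for them larger changes lay outside the interval. The 6 whose intervals were wider were Sdhd and 5 genes of few counts, Ndufaf5, Ndufaf7, Cox7a1, Ndufa4l2 and Atp5s. Their intervals include a 1.5-fold fall, and in Sdhd and Atp5s also a 1.5-fold rise. These contrasts with all rows are not matched for level: 75 of the 87 members averaged at least 50 CPM, against 2654 of 12505 rows. Among related genes, intervals lay within the bound for 18 of 18 of the TCA cycle. They did so for 21 of 23 of the outer membrane, import, cristae and proteases. The shares were 23 of 41 other assembly factors, 13 of 22 electron carriers and 13 of 24 biogenesis regulators.

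**Figure D1:**
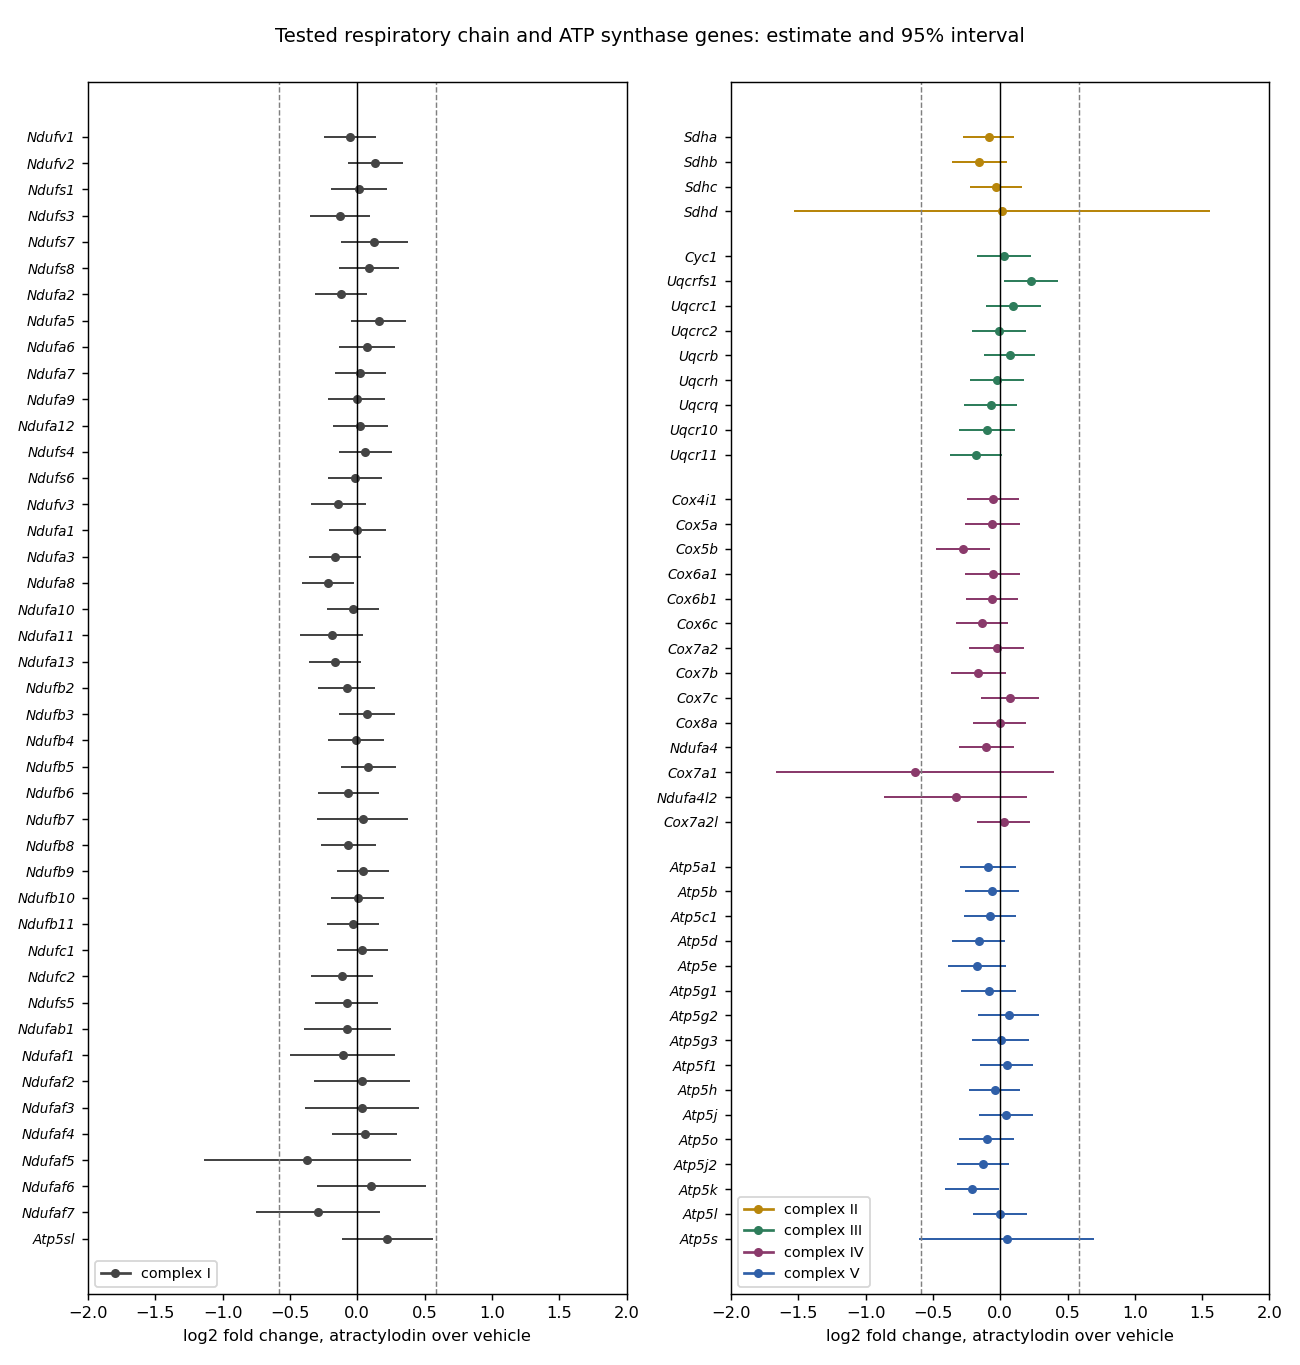
Log2 fold change of the tested members shown by name, atractylodin over vehicle (x axis), n = 3 libraries per group. The 95% interval was worked out from edgeR's F-test. Dashed lines mark a 1.5-fold change. The intervals of 6 members reach past the dashed lines, and Sdhd has the widest interval, -1.53 to 1.55.

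Small differences ran more often downward. In 16 of 87 members (18.4%) the libraries of the groups did not overlap in CPM, against 26.2% of all tested rows. Of these, 2 were higher with atractylodin (Ndufs4 and Uqcrfs1), which is 2.30% of the members against 13.5% of all rows. With RLE scaling 1 member stood apart upward. The other 14 were lower, 16.1% against 12.6% of all rows. They were Ndufv1, Ndufa2, Ndufa3, Ndufa8, Ndufa13 and Ndufaf5 of complex I, Sdha and Sdhb, Uqcr11, Cox5b and Cox6c, and Atp5d, Atp5h and Atp5k. In all, 34 estimates were above 0 and 53 below. This split rests on the scaling. On total counts alone, where the median of all rows moved to -0.09, 10 estimates were above 0 and 77 below, 0 members stood apart upward and 33 (37.9%) downward against 18.4% of all rows, and edgeR called Ndufa8 and Cox5b lower. The estimates below are those of TMM scaling unless total counts are named. The same scaling moved the calls over all rows to 312 higher and 707 lower.

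Promoter sequence is shown for the 4 members with the smallest p and for Sdhd, the member of widest interval, because promoters of this gene family are known for a few shared motifs. Each line gives 300 bases from RefSeq on GRCm38.p6, read 5′ to 3′ along the gene, with the annotated start at base 251. Capitals mark motifs found on either strand: NRF1-type GCGCANGCGC, ETS-type CCGGAAG (the GABP family), YY1-type AAGATGGC and ERR-type TGACCTTG. The ETS-type letters read CTTCCGG where they lie on the other strand.
Cox5b (chr1:36691237-36691536, plus strand): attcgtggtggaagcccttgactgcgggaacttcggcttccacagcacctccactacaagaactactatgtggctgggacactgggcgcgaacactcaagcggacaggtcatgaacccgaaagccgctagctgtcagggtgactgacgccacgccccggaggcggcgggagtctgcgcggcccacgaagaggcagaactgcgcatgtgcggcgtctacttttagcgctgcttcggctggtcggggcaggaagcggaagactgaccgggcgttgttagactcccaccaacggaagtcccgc
Uqcrfs1 (chr13:30545267-30545566, minus strand): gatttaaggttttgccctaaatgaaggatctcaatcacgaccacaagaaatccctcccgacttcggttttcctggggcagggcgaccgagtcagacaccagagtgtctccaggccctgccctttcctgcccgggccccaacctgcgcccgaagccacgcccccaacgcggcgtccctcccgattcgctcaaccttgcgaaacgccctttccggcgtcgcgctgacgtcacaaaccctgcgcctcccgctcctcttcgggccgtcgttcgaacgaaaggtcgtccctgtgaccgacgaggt
Ndufa8 (chr2:36049289-36049588, minus strand): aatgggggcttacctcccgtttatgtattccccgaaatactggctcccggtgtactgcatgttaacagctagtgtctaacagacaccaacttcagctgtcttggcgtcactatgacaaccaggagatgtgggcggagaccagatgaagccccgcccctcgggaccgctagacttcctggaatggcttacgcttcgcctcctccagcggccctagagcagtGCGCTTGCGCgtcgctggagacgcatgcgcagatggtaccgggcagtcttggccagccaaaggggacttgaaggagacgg
Atp5k (chr5:108434350-108434649, minus strand): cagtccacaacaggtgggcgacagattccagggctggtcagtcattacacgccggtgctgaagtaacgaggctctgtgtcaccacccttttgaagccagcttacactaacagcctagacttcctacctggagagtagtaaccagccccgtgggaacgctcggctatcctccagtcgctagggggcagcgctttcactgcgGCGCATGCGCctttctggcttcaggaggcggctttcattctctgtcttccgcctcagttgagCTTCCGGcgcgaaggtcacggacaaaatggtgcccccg
Sdhd (chr9:50603800-50604099, minus strand): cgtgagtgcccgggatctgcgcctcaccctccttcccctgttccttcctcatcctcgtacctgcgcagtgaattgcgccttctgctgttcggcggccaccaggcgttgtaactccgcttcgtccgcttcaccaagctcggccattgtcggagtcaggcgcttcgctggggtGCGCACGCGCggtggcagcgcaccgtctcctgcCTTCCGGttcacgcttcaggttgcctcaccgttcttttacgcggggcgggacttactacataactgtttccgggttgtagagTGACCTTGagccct
The Cox5b and Uqcrfs1 windows held none of these letters. Ndufa8 had 1 NRF1-type match, Atp5k had an NRF1-type and an ETS-type match, and Sdhd had 1 each of the NRF1-, ETS- and ERR-type. No pair of different motif kinds overlapped in any member.

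A window was available for 76 of the 93 members. At least 1 of the 4 motifs was found in 41 of them (53.9%), against 16.1% of all 32851 windows. NRF1-type letters were in 19 members (25%, against 4.60% of all windows), ETS-type in 17 (22.4%, against 8.86%), YY1-type in 11 (14.5%, against 2.75%) and ERR-type in 4 (5.26%, against 1.56%). The motifs were spread unevenly: NRF1-type letters were in 9 of 39 complex I windows, 2 of 3 in complex II, 1 of 5 in complex III, 1 of 14 in complex IV and 6 of 15 in complex V, and YY1-type letters in 8 complex I and 3 complex V windows. The windows of all genes were taken whether or not the gene was expressed here, so the shares are not matched for expression. Differences between complexes, some of few windows, were not tested. A match is a description of sequence and was not tested for binding.

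Complex I, NADH dehydrogenase, had 44 members, all tested. Estimates were above 0 for 22 and below 0 for 22, with a median log2 fold change of -0.00. Their summed level was 5903, 5871 and 5709 CPM with atractylodin and 5905, 5875 and 5826 CPM with vehicle, a ratio of 0.993, and the groups overlapped. The 7 core subunits, which carry the flavin and iron-sulfur clusters of the matrix arm, had 5 estimates above 0 and a median of 0.09, against 4 above 0 and a median of 0.00 on total counts alone. The 9 accessory subunits of the matrix arm had a median of 0.02, which was -0.06 on total counts alone. The 19 accessory subunits of the membrane arm had 12 estimates below 0 and a median of -0.03. Their summed level was 3041 to 3119 CPM with atractylodin and 3144 to 3161 CPM with vehicle, a ratio of 0.978 without overlap.

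Ndufa8, a membrane-arm subunit facing the intermembrane space, had the smallest p of complex I. It lies on chromosome 2 at 36036326 to 36049406 (GRCm38, minus strand). Its level was 152, 151 and 157 CPM with atractylodin and 189, 176 and 171 CPM with vehicle. The groups stood apart by little, with a log2 fold change of -0.22 ± 0.09 (SE), an interval of -0.40 to -0.03 and an adjusted p of 0.161 in edgeR. On total counts alone its log2 fold change was -0.30 with an adjusted p of 0.0484.

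Next by p came 2 other membrane-arm genes. Ndufa13, also known as Grim19, had 152, 153 and 167 CPM with atractylodin and 180, 172 and 179 CPM with vehicle (log2 fold change -0.17, interval -0.35 to 0.02, adjusted p 0.296 in edgeR). It overlaps Yjefn3 on its own strand and Tssk6 on the other. Ndufa3 had 158, 146 and 148 CPM with atractylodin and 171, 164 and 172 CPM with vehicle (log2 fold change -0.16, interval -0.35 to 0.02), with Tfpt overlapping on the other strand. In both, every atractylodin library was below every vehicle library, yet neither passed the test.

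The most abundant complex I transcripts in these 3′ counts were Ndufa6 and Ndufb9. Ndufa6, a matrix-arm accessory subunit, had 557, 561 and 479 CPM with atractylodin and 498, 531 and 490 CPM with vehicle, and the groups overlapped (log2 fold change 0.07, interval -0.13 to 0.27). Ndufb9, a membrane-arm subunit, had 396, 399 and 371 CPM with atractylodin and 374, 376 and 383 CPM with vehicle (log2 fold change 0.04, interval -0.14 to 0.23). It overlaps Gm49356 on the same strand. Neither differed beyond the spread of its libraries.

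No core subunit stood out. Ndufs1, the largest iron-sulfur subunit, had 86.8, 90.8 and 88.7 CPM with atractylodin and 91.5, 91.4 and 82.3 CPM with vehicle. Ndufv1, the NADH-binding flavoprotein, had 116, 119 and 121 CPM with atractylodin and 122, 121 and 126 CPM with vehicle. In Ndufv1 the groups did not overlap, but the log2 fold change was -0.05 ± 0.09 (SE), smaller than its error. The largest core estimates, Ndufv2 at 0.13 and Ndufs3 at -0.13, had intervals that spanned 0. Ndufs4, an accessory subunit of the matrix arm, was 1 of 2 members that stood apart upward, though by very little. It had 112, 109 and 106 CPM with atractylodin and 102, 106 and 105 CPM with vehicle (log2 fold change 0.06 ± 0.09, SE). Its lowest atractylodin library was at 106.48 CPM and its highest vehicle library at 106.46 CPM.

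The 8 assembly factors, which help build complex I and leave it afterwards, were at lower levels, with 5 estimates above 0 and a median of 0.03 (2 above 0 and -0.05 on total counts alone). Their summed level was 149, 158 and 161 CPM with atractylodin and 153, 152 and 150 CPM with vehicle. Ndufaf5 had 2.29, 2.40 and 2.51 CPM with atractylodin and 3.23, 3.18 and 2.99 CPM with vehicle. The groups did not overlap, but at that depth the interval ran from -1.13 to 0.39. Atp5sl had the largest upward estimate of complex I, 0.22 with an interval of -0.11 to 0.55.

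Complex II, succinate dehydrogenase, is made wholly from nuclear genes, and all 4 were tested. It also works as an enzyme of the TCA cycle. Its summed level was 947, 1055 and 1034 CPM with atractylodin and 1107, 1060 and 1066 CPM with vehicle. Every atractylodin library was below every vehicle library, at a ratio of 0.939, and a two-sided exact permutation test of 3 against 3 libraries cannot give a p below 0.10. Sdha, the flavoprotein (chromosome 13, 74322254 to 74350280, minus strand), had 323, 320 and 321 CPM with atractylodin and 341, 346 and 337 CPM with vehicle. Sdhb, the iron-sulfur subunit (chromosome 4, 140961203 to 140979193, plus strand), had 306, 365 and 342 CPM with atractylodin and 389, 366 and 374 CPM with vehicle. These catalytic genes carried the separation: together they had 630 to 685 CPM with atractylodin and 711 to 729 CPM with vehicle.

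Neither catalytic gene passed the test. The log2 fold change of Sdha was -0.09 (interval -0.27 to 0.10, adjusted p 0.62 in edgeR), and that of Sdhb was -0.15 (interval -0.35 to 0.04, adjusted p 0.37 in edgeR). Sdhc, a membrane anchor that holds heme with Sdhd, had 287, 277 and 267 CPM with atractylodin and 285, 295 and 270 CPM with vehicle. Its groups overlapped, with a log2 fold change of -0.03 (interval -0.22 to 0.15).

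Sdhd, the other membrane anchor (chromosome 9, 50596357 to 50603812, minus strand), was unlike every other well-counted member in its spread. Its level was 30.6, 93.2 and 103 CPM with atractylodin and 93.1, 52.9 and 85.1 CPM with vehicle. The counts behind these were 307, 893 and 1237 with atractylodin and 173, 616 and 1053 with vehicle. The low values were atractylodin 1 and vehicle 2, both deep libraries, so 1 library in each group was low and the groups overlapped. The log2 fold change was 0.01 ± 0.56 (SE), with an interval of -1.53 to 1.55. It was 0.39 without atractylodin 1 and -0.28 without atractylodin 3, and no leave-one-out estimate passed the test.

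The within-group coefficient of variation (CV) of Sdhd, pooled over both groups, was 41.5%. Of the 2654 tested rows averaging at least 50 CPM, 17 (0.641%) had a CV at least that large. The median there was 8.19% over all rows and 5.52% over the 75 members. The next highest member at that level, Ndufb7, was at 19.2%, with 76.6, 88.5 and 81.1 CPM with atractylodin and 106, 64.0 and 77.2 CPM with vehicle. Sdhd and Ndufb7 were picked out after their values were seen.

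The gene next to Sdhd did not share this spread. Timm8b, a small chaperone of mitochondrial protein import chosen after the Sdhd values were seen, starts 97 bases from Sdhd on the opposite strand (chromosome 9, 50603910 to 50605320), and the RefSeq promoter windows of the pair share 151 bases. Timm8b had 107, 98.5 and 90.0 CPM with atractylodin and 105, 100 and 103 CPM with vehicle, a log2 fold change of -0.06 ± 0.10 (SE). In atractylodin 1, the library lowest for Sdhd, Timm8b was at its highest. In GENCODE M21, Sdhd overlaps no other gene, and its last 200 bases have no near copy among other transcripts, taken as 95% identity over at least 100 bases.

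**Figure D2:**
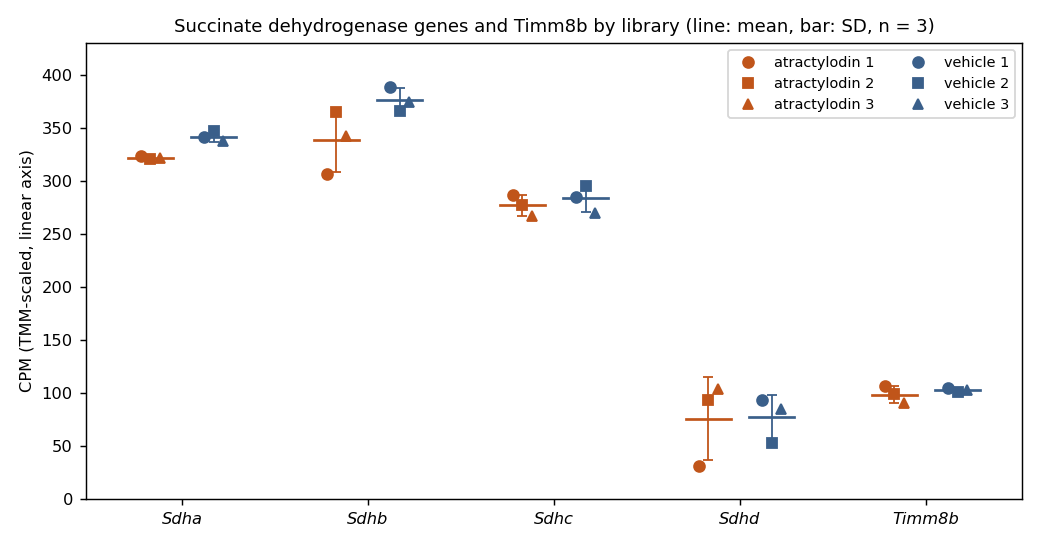
CPM on TMM-scaled libraries (y axis, linear from 0) of the 4 succinate dehydrogenase genes and of Timm8b, the neighbour of Sdhd, in 3 atractylodin and 3 vehicle libraries. Points are libraries, the line is the mean and the bar the SD. Sdhd runs from 30.6 to 103 CPM with atractylodin and 52.9 to 93.1 CPM with vehicle, while the other 4 genes vary less relative to their means.

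**Figure D3:**
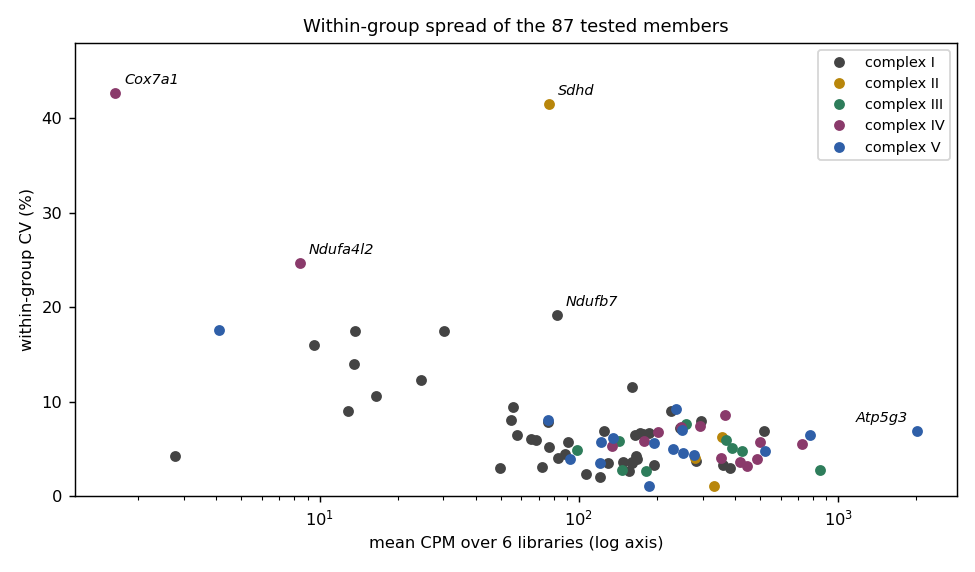
Within-group CV pooled over both groups (y axis, percent) against mean CPM over 6 libraries (x axis, log scale) for the 87 tested members, coloured by complex. The CV is higher among members of few counts. Sdhd, at 76.4 CPM and 41.5%, lies far above members of its level, and the next is Ndufb7 at 19.2%.

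Complex III, the cytochrome bc1 complex, had 9 members, all tested, with 4 estimates above 0 and 5 below. Summed levels were 2948, 2911 and 2707 CPM with atractylodin and 2887, 2870 and 2841 CPM with vehicle, a ratio of 0.996 with overlap. Its members did not all lean the same way. Uqcrfs1, the Rieske iron-sulfur protein (chromosome 13, 30540308 to 30545362, minus strand), had 419, 412 and 368 CPM with atractylodin and 334, 358 and 332 CPM with vehicle. Every atractylodin library was above every vehicle library, with means of 400 ± 27.3 CPM and 341 ± 14.7 CPM (SD, n = 3 each). The log2 fold change was 0.23 ± 0.09 (SE), interval 0.03 to 0.42, with an adjusted p of 0.155 in edgeR. On total counts alone it was 0.14, with an adjusted p of 0.41.

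The other electron carrier of the complex did not follow it. Cyc1, cytochrome c1, had 146, 154 and 132 CPM with atractylodin and 145, 137 and 142 CPM with vehicle, a log2 fold change of 0.03. Uqcr11, a small membrane subunit, leaned downward, with 139, 135 and 137 CPM with atractylodin and 155, 150 and 161 CPM with vehicle (log2 fold change -0.18, interval -0.37 to 0.00, adjusted p 0.245 in edgeR). Uqcr10, another small subunit, had 269, 259 and 223 CPM with atractylodin and 268, 283 and 254 CPM with vehicle, with overlap. In the most abundant members the groups overlapped. Uqcrq, a small subunit near the quinone sites, had 855, 825 and 807 CPM with atractylodin and 875, 846 and 890 CPM with vehicle. Uqcrh, the hinge protein at the cytochrome c side, had 432, 430 and 401 CPM with atractylodin and 453, 407 and 424 CPM with vehicle. The remaining members, Uqcrc1, Uqcrc2 and Uqcrb, had log2 fold changes between -0.01 and 0.10.

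Complex IV, cytochrome c oxidase, had 20 members, of which 14 were tested. Estimates were below 0 for 12 of the 14, with a median log2 fold change of -0.06. Summed levels were 4353, 4260 and 4185 CPM with atractylodin and 4444, 4585 and 4300 CPM with vehicle, a ratio of 0.960, but overlapping, since atractylodin 1 was above vehicle 3. Cox5b, the zinc-binding subunit on the matrix side (chromosome 1, 36691449 to 36693681, plus strand), had 159, 160 and 163 CPM with atractylodin and 207, 179 and 199 CPM with vehicle. The atractylodin libraries lay close together and below all vehicle libraries, with means of 161 ± 1.93 CPM and 195 ± 14.5 CPM (SD, n = 3 each). The log2 fold change was -0.28 ± 0.09 (SE), with an interval of -0.47 to -0.09 and an adjusted p of 0.0738 in edgeR. The adjusted p ran between 0.0207 and 0.245 over the alternatives. It was below 0.05 on total counts alone (0.0207) and with libraries thinned to the depth of vehicle 1 (0.0415), and it was 0.245 without vehicle 1.

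Cox7b and Cox6c came next by p. Cox7b, a small subunit, had 292, 265 and 270 CPM with atractylodin and 333, 315 and 279 CPM with vehicle, with overlap. Cox6c, another small subunit, had 322, 336 and 347 CPM with atractylodin and 386, 361 and 357 CPM with vehicle, without overlap. Neither passed, at adjusted p of 0.35 and 0.416 in edgeR.

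The liver-type isoforms held the level of the complex in both groups. Cox4i1, the ubiquitous form of the regulatory subunit 4, had 453, 434 and 427 CPM with atractylodin and 443, 472 and 449 CPM with vehicle. Cox6a1, the liver form of subunit 6a, had 738, 681 and 712 CPM with atractylodin and 736, 787 and 690 CPM with vehicle. Cox7a2, the liver form of subunit 7a, had 533, 491 and 457 CPM with atractylodin and 515, 502 and 491 CPM with vehicle. In each of these the groups overlapped. A near copy of the 3′ end of Cox6a1 lies in another annotated gene. Cox8a had 508, 479 and 468 CPM with atractylodin and 494, 498 and 466 CPM with vehicle, and Cox6b1 had 424, 414 and 394 CPM with atractylodin and 413, 443 and 427 CPM with vehicle. Their log2 fold changes, like those of Cox4i1, Cox6a1 and Cox7a2, were between -0.06 and -0.00. Ndufa4 had 175, 207 and 200 CPM with atractylodin and 205, 219 and 201 CPM with vehicle, a log2 fold change of -0.10. Cox7a2l, the member classed as a supercomplex factor, had 137, 141 and 128 CPM with atractylodin and 126, 140 and 131 CPM with vehicle.

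The 8 isoforms typical of other tissues had few counts. Together they had 7.77, 12.2 and 10.9 CPM with atractylodin and 9.69, 11.2 and 13.9 CPM with vehicle, while the 11 liver-type or single-gene subunits had 4047 to 4208 CPM with atractylodin and 4155 to 4434 CPM with vehicle. Ndufa4l2, a hypoxia-responsive relative of Ndufa4, made up most of this with 5.28, 8.25 and 9.10 CPM with atractylodin and 8.07, 7.98 and 11.7 CPM with vehicle. It overlaps Shmt2 on the other strand. Cox7a1, the heart and muscle form of subunit 7a, had 1.40, 1.78 and 0.919 CPM with atractylodin and 1.08, 2.83 and 1.78 CPM with vehicle, an interval of -1.66 to 0.40 on the log2 scale. Of these values, that of vehicle 1 lay under its floor of 3 counts, 1.62 CPM, whereas the floor was 0.24 to 0.31 CPM in the other 5 libraries.

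The remaining 6 isoforms had too few counts to be tested. Cox6b2, the testis form of subunit 6b, had 5, 20 and 8 counts with atractylodin and 0, 1 and 4 counts with vehicle. The groups did not overlap, but with no filter its unadjusted p of 0.011 became an adjusted p of 0.112 in edgeR, and the floor of vehicle 1, 1.62 CPM, lay above the levels in atractylodin 1 and 3 (0.498 and 0.668 CPM). Cox4i2, the lung form of subunit 4, had 1 count in all 6 libraries. Cox6a2, Cox7b2, Cox8b and Cox8c had between 3 and 5 counts over all 6 libraries.

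Complex V, ATP synthase, had 16 members, all tested, with 5 estimates above 0, 11 below and a median log2 fold change of -0.07. Summed levels were 5656, 5348 and 5206 CPM with atractylodin and 5638, 5701 and 5425 CPM with vehicle, a ratio of 0.967 with overlap. The 5 genes of the F1 part, which holds the catalytic sites, were all estimated below 0, by a median of -0.09. Their summed level was 1887, 1826 and 1813 CPM with atractylodin and 2023, 2001 and 1904 CPM with vehicle, a ratio of 0.932 without overlap. No single one passed the test.

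Atp5k, subunit e of the membrane part (chromosome 5, 108433244 to 108434448, minus strand), had the smallest p of complex V. It had 124, 130 and 121 CPM with atractylodin and 157, 143 and 136 CPM with vehicle, without overlap. The log2 fold change was -0.21 ± 0.09 (SE), with an interval of -0.40 to -0.02 and an adjusted p of 0.194 in edgeR. The 3′ end of Atp5k has near-identical copies in 2 pseudogenes, so its reads could have been split between them. Atp5d and Atp5e, the delta and epsilon subunits of the F1 part, followed. Atp5d had 227, 235 and 249 CPM with atractylodin and 275, 252 and 270 CPM with vehicle, without overlap and with Cbarp on the other strand. Atp5e had 209, 208 and 249 CPM with atractylodin and 263, 227 and 261 CPM with vehicle, with overlap. Their adjusted p values in edgeR were 0.32 and 0.347.

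The most abundant member of all was Atp5g3, which encodes the c-ring subunit that turns as protons pass. It had 2229, 1949 and 1886 CPM with atractylodin and 1984, 2102 and 1961 CPM with vehicle, a log2 fold change of 0.00 with an interval of -0.20 to 0.21. Atp5g1 and Atp5g2 encode the same mature protein behind different import sequences. Atp5g1 had 85.5, 89.8 and 93.5 CPM with atractylodin and 99.0, 93.4 and 93.7 CPM with vehicle. Atp5g2 had 83.6, 81.8 and 67.9 CPM with atractylodin and 75.4, 72.8 and 75.4 CPM with vehicle. The groups overlapped in all 3 c-ring genes. Atp5g1 and Atp5g2 each have a near copy of their 3′ end in another annotated gene, and Atp5g3 has none. Atp5a1, the alpha subunit of the F1 head, had 816, 740 and 708 CPM with atractylodin and 824, 834 and 752 CPM with vehicle, a log2 fold change of -0.09 with overlap.

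**Figure D4:**
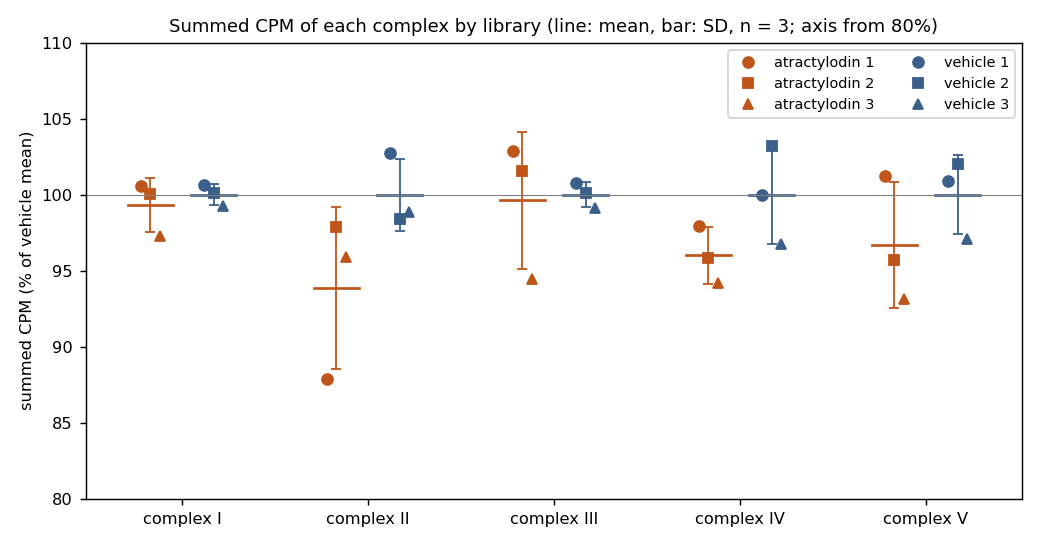
Summed CPM of each complex in each library as a percent of the vehicle mean (y axis, which starts at 80%), atractylodin left of vehicle for complexes I to V. Points are libraries, the line is the mean and the bar the SD of 3 libraries. With this TMM scaling, complex II is the only one of the 5 whose groups do not overlap, at ratios of 0.993, 0.939, 0.996, 0.960 and 0.967 for complexes I to V.

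Genes around the chain gave a few calls. The 41 tested assembly factors that the symbols do not cover had 0 called higher and 2 lower, with a median log2 fold change of -0.09. The 22 genes of mobile carriers and other electron entry had 0 higher and 1 lower (median -0.00), and 18 TCA cycle genes had 0 higher and 1 lower (median 0.00). The 24 regulators of mitochondrial biogenesis had 1 higher and 0 lower (median 0.14), and 23 genes of the outer membrane, import, cristae and proteases had 2 higher and 0 lower (median 0.06). These counts stand against 3.92% higher and 3.33% lower over all tested rows.

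Sco2 and Sdhaf1, both needed to assemble complexes of the chain, fell. Sco2, a copper chaperone of cytochrome c oxidase, had 81.9, 70.0 and 62.6 CPM with atractylodin and 110, 105 and 91.2 CPM with vehicle. Its log2 fold change was -0.51 ± 0.11 (SE), with an adjusted p of 0.00936 in edgeR, and of 14 alternatives only leaving out vehicle 1 lost the call (adjusted p 0.0563). Sco2 overlaps Tymp on its own strand and Ncaph2 on the other, and reads of these may not have been told apart in the counting. Sdhaf1, which helps insert the iron-sulfur clusters of Sdhb, had 27.6, 26.8 and 22.5 CPM with atractylodin and 42.0, 37.9 and 34.4 CPM with vehicle. Its log2 fold change was -0.55 ± 0.14 (SE), with an adjusted p of 0.0183 in edgeR that became 0.0758 without vehicle 1, 0.0665 without vehicle 2 and 0.0719 without atractylodin 3. The subunits these factors serve, of complexes IV and II, had no calls, and the difference between a factor and its subunits was not tested.

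Gpd2 and Pcx also fell. Gpd2, the mitochondrial glycerol-3-phosphate dehydrogenase that feeds electrons to ubiquinone, had 123, 86.8 and 96.7 CPM with atractylodin and 131, 143 and 135 CPM with vehicle (log2 fold change -0.42 ± 0.12, SE, adjusted p 0.0356 in edgeR). Pcx, pyruvate carboxylase, had 121, 121 and 126 CPM with atractylodin and 174, 163 and 145 CPM with vehicle (log2 fold change -0.38 ± 0.09, SE, adjusted p 0.0174 in edgeR). Without vehicle 1 neither was called, at adjusted p of 0.0915 and 0.0992 in edgeR. The Gpd2 call was lost in 5 of 6 fits that left out a library and the Pcx call in 3 of 6.

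Hspd1, Hspa9 and Tfb2m rose. Hspd1, the chaperonin of the mitochondrial matrix, had 420, 477 and 464 CPM with atractylodin and 337, 347 and 328 CPM with vehicle (log2 fold change 0.43 ± 0.09, SE, adjusted p 0.0071 in edgeR), and lost its call only without vehicle 3 (adjusted p 0.0539). It overlaps Hspe1 on the other strand. Hspa9, the matrix chaperone mortalin, had 455, 442 and 431 CPM with atractylodin and 332, 349 and 365 CPM with vehicle (log2 fold change 0.34 ± 0.09, SE, adjusted p 0.0253 in edgeR). That call was lost in 5 of 6 fits that left out a library and on total counts alone. Tfb2m, a factor for transcription of mitochondrial DNA, had 41.7, 44.8 and 36.2 CPM with atractylodin and 30.7, 29.6 and 26.2 CPM with vehicle (log2 fold change 0.52 ± 0.13, SE, adjusted p 0.0204 in edgeR). Its call was lost in 4 of 14 alternatives, among them total counts alone (adjusted p 0.0528) and without vehicle 3 (adjusted p 0.135). Tfb2m, Sdhaf1, Gpd2 and Pcx also overlap an annotated gene on the other strand.

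The factors best known for driving the chain's genes did not pass. Ppargc1a, which encodes PGC-1α, had 27.9, 23.8 and 16.0 CPM with atractylodin and 17.8, 17.2 and 18.4 CPM with vehicle, with overlap (log2 fold change 0.34, adjusted p 0.317 in edgeR). Nrf1, Gabpa, Esrra and Tfam had log2 fold changes of -0.10, 0.16, -0.26 and -0.04. Their adjusted p values in edgeR lay between 0.282 and 0.877. These 5 genes were picked out of the list as the best known, outside the rule for named genes. Of the 24 regulators tested, 17 estimates were above 0 and 7 below. The groups stood apart upward in 3 and downward in 0, 12.5% against 26.2% of all rows. The 3 were Tfb2m, Ppara (log2 fold change 0.30, adjusted p 0.0593 in edgeR) and Yy1 (0.28, adjusted p 0.0965 in edgeR). On total counts alone the median of the list was 0.05.

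**Figure D5:**
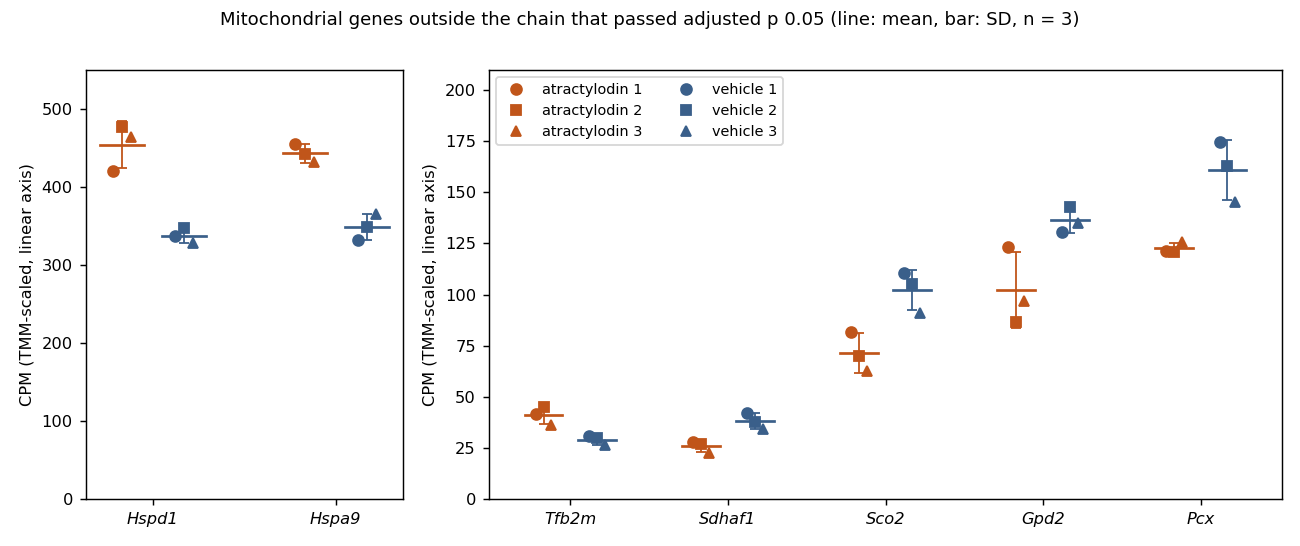
CPM on TMM-scaled libraries (y axes, linear from 0) of the 7 genes outside the chain that passed an adjusted p of 0.05, with atractylodin left of vehicle for each gene. Points are libraries, the line is the mean and the bar the SD of 3 libraries. Hspd1, Hspa9 and Tfb2m are higher with atractylodin and Sdhaf1, Sco2, Gpd2 and Pcx lower, and in none of the 7 do the groups overlap.

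Markers of hepatocytes, the cells that should supply most of this RNA, were high throughout, with 7 genes summing to 89368 to 96086 CPM with atractylodin and 90093 to 99707 CPM with vehicle and 0 of 7 called. Striated muscle markers, whose cells use the muscle isoforms of complex IV, summed to 0.668 to 1.25 CPM with atractylodin and 0 to 1.21 CPM with vehicle, with 2 of 7 at 0 in every library. Adipose markers summed to 3.03 to 11.2 CPM with atractylodin and 11.4 to 55.5 CPM with vehicle, without overlap, with 2 of 6 tested and 0 called by edgeR (1 lower with DESeq2 or without vehicle 3). Cholangiocyte markers, 7 genes, summed to 33.3 to 36.6 CPM with atractylodin and 64.7 to 81.3 CPM with vehicle, without overlap. Only 4 of the 7 were tested. Of these, 3 (Sox9, Spp1 and Tstd1) were called lower, and the other had a log2 fold change of 0.05. Kupffer cell markers had 163 to 258 CPM with atractylodin and 195 to 287 CPM with vehicle, with 0 of 7 called. Endothelial markers had 260 to 289 CPM with atractylodin and 285 to 302 CPM with vehicle, with 1 called higher (Lyve1) and 2 lower (Stab2 and Fcgr2b) of 7, each call lost in 5 of 6 fits that left out a library. Stellate cell markers had 356 to 473 CPM with atractylodin and 416 to 487 CPM with vehicle, with 1 of 7 called lower. Erythroid markers had 1465 to 2858 CPM with atractylodin and 1818 to 2324 CPM with vehicle, with 1 of 5 (Alas2) called lower. Neutrophil markers had 1.15 to 22.5 CPM with atractylodin and 5.58 to 8.07 CPM with vehicle, and T and B cell markers stayed under 3 CPM in every library. Their part in the values of the chain was not tested. The marker calls stand against 3.92% higher and 3.33% lower over all tested rows.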

How the data were processed

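Liver RNA (500 ng per library) was made into QuantSeq libraries with a Lexogen kit, per the labels' protocols. The authors deposited, for each library, whole-number counts by gene symbol with no normalization. Bowtie2, bedtools and the build mm10 are named in the submitters' processing notes; annotation, strand and molecular identifiers are not given in the sources used here. Floors cover counting error only, while intervals of fold changes also hold the spread between libraries. Titles gave each sample its group and number. All 6 libraries differed beyond sampling noise (chi-square per degree of freedom at least 2.75).

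Rows (23282, of which 44 repeat a symbol) were filtered with filterByExpr, scaled by TMM and tested by edgeR 4.0.16 (quasi-likelihood F-test, robust) in R 4.3.3, without covariates, with Benjamini-Hochberg adjustment over 12505 rows. Fold changes are given with SE, and edgeR's common biological coefficient of variation was 15.0%. The procedure was checked on simulated counts. DESeq2 1.42.0 and limma 3.58.1 (voom), other scalings and filters, a replicate block, thinned counts and leaving out each library were alternatives.

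Named members were those past the threshold (0), the 3 of smallest p and the 2 most abundant of each complex, and isoform pairs. In each list of other genes, up to 3 past the threshold were named, or else the 1 of smallest p. Members and lists were chosen with earlier results of these data known. Positions are from GENCODE M21 (GRCm38, the same build as mm10; 92 of 93 members matched, Atp5sl under the name Dmac2, 31 overlapping a gene on the opposite strand and 11 on the same strand). For 13 of 92 members the last 200 bases had a near copy elsewhere (blastn 2.17.0). They were Ndufs3, Ndufb2, Ndufb6, Ndufb11, Uqcrc2, Cox5a, Cox6a1, Cox7c, Atp5g1, Atp5g2, Atp5h, Atp5k and Atp5l. Promoters are from RefSeq. Values of 1 member are not reported here by name. Figures used matplotlib 3.10.9.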

Additional observations from a re-analysis of the deposited data

How the results depend on the processing

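No member was called with DESeq2, limma-voom, RLE scaling, no filter (93 tested), a mean of at least 5 CPM (84 tested) or any 1 library left out, where the smallest adjusted p of a member was 0.059 to 0.229 over those 6 fits. Total counts alone called 2 members lower, 1 in complex I (Ndufa8) and 1 in complex IV (Cox5b). Its median log2 fold changes were -0.116 over all complexes and -0.0856, -0.142, -0.0914, -0.143 and -0.152 for complexes I to V, against a median of -0.09 over all rows. Its ratios of summed CPM were 0.922 over all complexes and 0.938, 0.886, 0.941, 0.907 and 0.914 for complexes I to V. Libraries thinned to the depth of vehicle 1 called 1 member lower, 1 in complex IV (Cox5b), with medians of -0.0362, -0.0943 and -0.119 for complexes I, IV and V. With 1 library left out, the median ran between -0.0280 and 0.00794 for complex I and between -0.122 and -0.0560 for complex II. The causes were not tested. No gene past the threshold changed sign under these alternatives. Values that were not past it did cross 0. Among the medians of whole complexes, those of I and III did. Among the tested members named by rule, Ndufa6, Ndufb9, Sdhc, Sdhd (-0.28 to 0.39), Uqcrh, Cox7a2, Cox7a2l, Cox8a, Atp5g2 and Atp5g3 did. Medians of smaller sets and other lists crossed 0 too. On total counts alone, complex I matrix-arm accessory subunits had -0.06 and complex I assembly factors -0.05. The outer membrane, import, cristae and protease list had -0.03 and the TCA list -0.08.

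Over all rows, edgeR's 906 calls became 494 without vehicle 1, 467 without vehicle 3 and 519 with thinned libraries (8952 rows tested). Without vehicle 1, the assembly factor, electron carrier and TCA lists had 0 calls. Libraries of the same number showed no sign of deviating together from their group means (r = -0.04, -0.10 and 0.04). Libraries of unlike number gave r between -0.11 and 0.15. With 3 libraries per group, these values cannot exclude a pairing by number. With a replicate block, 0 members were called, 811 rows were called, and the median log2 fold change over all complexes was -0.0364. The depth of vehicle 1 (1831461 counts) limits members of few counts.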
